A study of Mus musculus with 6 samples.

Results

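The lysosome genes described here are 36 genes fixed by name: 7 lysosomal membrane proteins, 17 hydrolases, 3 soluble proteins without enzyme activity, 5 parts of the proton pump, 2 fusion factors, and the transcription factors Tfeb and Tfe3. They were found as every probe whose gene name on the array was 1 of these symbols, which gave 51 probes for all 36 genes, out of 55681 probes. Each gene is represented by its probe with the highest mean signal. All 36 were well above background on all 6 arrays, so none was lost to the filter on dim probes, and they were tested among 18228 names.

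Lysosomes are the acidic compartments in which cells digest proteins, sugars and lipids. A proton pump, the V-ATPase, acidifies them, tethering complexes fuse them with endosomes and autophagosomes, and TFEB and TFE3 are related transcription factors that switch on many lysosomal genes by binding a short E-box motif in their promoters. Maturing erythroid cells use autophagy and lysosomes to remove mitochondria and other organelles.

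The study compared mouse fetal liver erythroid progenitors at E14.5 that had received a retrovirus with a short hairpin RNA against the RNA exosome subunit Exosc8 (shExosc8, 3 arrays) with cells that had received a hairpin against luciferase, which mouse cells do not have (shControl, 3 arrays). Both groups were infected and then kept for 3 days ex vivo with erythropoietin, dexamethasone and kit ligand conditioned medium, and no uninfected group was among the samples. Strain, number of embryos and whether replicates came from separate cultures are not in the labels, so p-values measure no more than how far these samples scatter, and that scatter may be technical. The progenitors had been isolated with a cell separation kit.

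Levels are given as log2 signal, scaled so that the 75th percentile of the well measured probes is the same on every array. Fold changes are shExosc8 minus shControl, with the standard error (SE) of the limma fit. A gene is said to have risen or fallen where limma's p-value, adjusted over all names by the Benjamini-Hochberg method, was under 0.05. An exact permutation test of 3 arrays against 3 cannot give a p below 0.1. Exosc8 itself stood at 40.4%, 40.0% and 57.4% of the control mean on shExosc8 replicates 1, 2 and 3. Between 25580 and 39936 of 59305 spots per array were well above background, most on shControl replicate 2. Of the 14 erythroid markers listed, 14 were above background on all 6 arrays, 4 rose and 1 fell. The groups occupied separate rows of the slide, so an effect of the row and one of the hairpin cannot be told apart.

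The lysosome genes did not move as a block. Of the 36, 9 rose, 8 fell and 19 did not pass, and the median log2 fold change was -0.09, against -0.06 over all names tested. The share called was 47.2% (25% upward and 22.2% downward), beside a background of 29.8% of all names called in either direction, 16.0% upward and 13.8% downward. Among names in the RefSeq gene table the background was 32.5% (16.4% upward and 16.1% downward), and among names above background on all 6 arrays 29.6%. On 25 of 36 genes (69.4%) the shExosc8 arrays lay all above or all below the control arrays, beside 51.6% of all names. They lay above on 11 genes (23.2% of all names did) and below on 14 (28.4% of all names). In the authors' deposited table, 3 of the 36 had an adjusted p under 0.05 (Ctsh, Hexa and Atp6v0d1), beside 7.25% of all names.

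How the calls split into rises and falls depended on the scaling. It was 6 and 10 with the 75th percentile taken over all probes, and 2 and 17 with no normalization between arrays. Those settings moved the median of all names to -0.21 and -0.56. With no normalization 52.8% of the 36 genes were called, beside 50.3% of all names. The count of called genes depends on single arrays: it was 5, 7 and 18 without shExosc8 replicates 1, 2 and 3, and 7, 9 and 6 without shControl replicates 1, 2 and 3. The share of all names called moved with it: without shExosc8 replicate 1 it was 12.9%, beside 13.9% of the 36 genes, and without shExosc8 replicate 3 it was 44.9%, beside 18 of the 36. Without both shExosc8 replicate 3 and shControl replicate 2, it was 16. Called genes that kept their call with any 1 array left out were Ctsh, Hexa, Atp6v0d1, Laptm4a and Man2b1, 5 in all. None of the 17 called genes changed sign in those fits. With no normalization between arrays, Atp6v0d1 and Laptm4a did not pass (adjusted p = 0.0627 and 0.0638). Lamp1, Lamp2, Ctsb, Ctsc, Ctsz, Gaa and Npc2 kept their call only without shExosc8 replicate 3 and lost it for the other 5 arrays. Gusb and Atp6v0a1 lost theirs without shExosc8 replicate 1 or 2 or shControl replicate 1 or 3, and Vps18 without shExosc8 replicate 1 or 2 or shControl replicate 2 or 3. Ctsd lost its call without shExosc8 replicate 1 or shControl replicate 1 or 3, with adjusted p of 0.0547 to 0.0557.

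**Figure D1:**
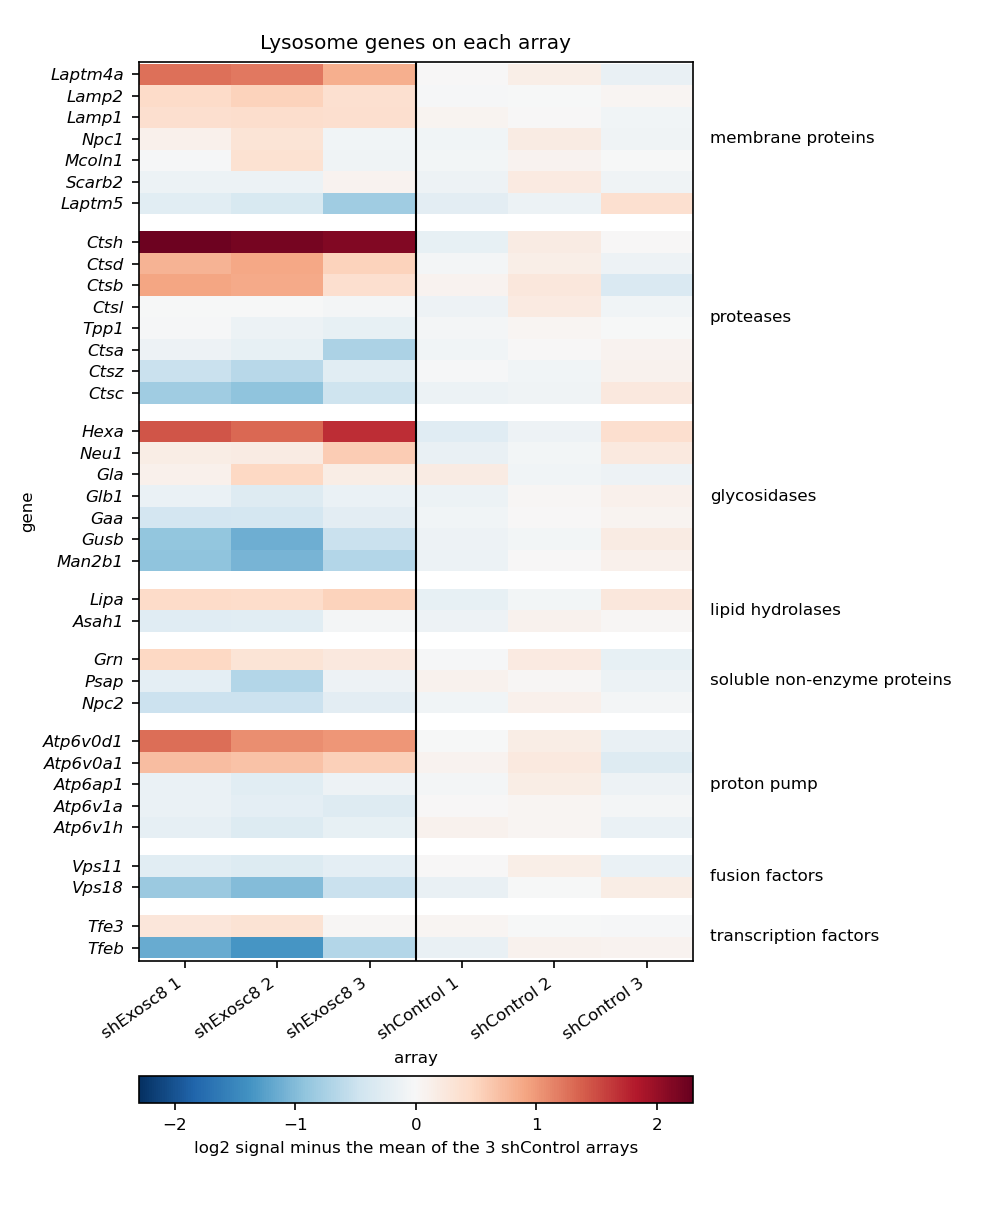
Log2 signal of each of the 36 lysosome genes (rows, grouped by role) on each of the 6 arrays (columns), as the difference from the mean of the 3 shControl arrays, with red above and blue below that mean. Ctsh, Hexa, Atp6v0d1 and Laptm4a are red on all 3 shExosc8 arrays and Tfeb, Man2b1, Gusb and Vps18 blue on all 3.

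Of the transcription factors, Tfeb fell and Tfe3 did not pass. Tfeb, a regulator of lysosome and autophagy genes, read 6.67, 6.47 and 7.15 on shExosc8 replicates 1 to 3 and 7.64, 7.92 and 7.90 on the controls, on a log2 scale. All shExosc8 arrays lay below all controls, with replicate 3 the nearest to them. The fall was 1.06 ± 0.20 on the log2 scale (SE, n = 3 per group), to 48.1% of the control level, with an adjusted p of 0.0125 from limma. Tfeb has 1 probe, and its shExosc8 signals were dim: the lowest signals well above background on those arrays were 4.82, 4.76 and 5.63. The probe maps to chromosome 17, from 47929089 to 47929148 on mm9. Without shExosc8 replicate 1 the adjusted p was 0.0531, and without shControl replicate 3 it was 0.0546. With normexp background correction it was -0.50 under the same scaling (adjusted p = 0.0575) and -0.77 under quantile normalization (adjusted p = 0.0256).

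Tfe3, the close relative of Tfeb, read 12.54, 12.59 and 12.29 on shExosc8 and 12.30, 12.25 and 12.24 on the controls. The third shExosc8 array lay within the control range, so the groups overlap. Its log2 fold change was 0.21 ± 0.12 (SE) with a 95% interval of -0.07 to 0.49 and an adjusted p of 0.207, and its second probe gave 0.09. Without shExosc8 replicate 3 it was 0.30 and passed, with an adjusted p of 0.0423, and with no normalization between arrays it was -0.29. Whether Tfeb and Tfe3 differ in their response was not tested. Of their relatives, Mitf, named after its value was seen, was at -0.13 (adjusted p = 0.469), and Tfec was not well enough measured to be tested.

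Promoter sequence shows which of these genes carry the E-box that TFEB and TFE3 recognise. RefSeq promoter windows (GRCm38.p6, 250 bases before to 50 bases after each start) were present for 30 of the 36 genes; Npc1, Ctsb, Ctsh, Asah1, Atp6v1h and Vps11 had none in the table. The palindrome CACGTG was found on 10 of the 30 genes (33.3%), against 8.09% of 27025 genes in the whole table and 11.6% of 10144 genes in it that were tested on the array. Among the other lysosome genes with a window it was on 26.2%. The 36 genes had been listed as lysosome and TFEB target genes, so an excess over the whole table cannot be separated from that choice. The longer GTCACGTG, searched on both strands and always containing CACGTG, was on 7 of 30 (23.3%), against 2.55% of the whole table, 4.66% of the genes tested and 18.7% of the other lysosome genes. The full palindrome, in which GTCACGTG reads on both strands of the same place, was on 0 of the 30, against 0.37% of the whole table. These are letter matches, not measured binding. The Lamp1 promoter is shown because it holds 4 E-boxes (in capitals) in the 80 bases before its start (chr8:13159081-13159160, plus strand).
Lamp1: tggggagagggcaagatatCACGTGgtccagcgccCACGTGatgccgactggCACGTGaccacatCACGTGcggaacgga
The next 5 stretches were chosen to set genes that rose (Atp6v0d1 and Ctsd) beside genes that did not pass (Mcoln1 and Glb1) and a gene that fell (Gaa). Capitals mark GTCACGTG or its reverse complement, or in Gaa the plain CACGTG. They lie at chr8:105566050-105566079 (minus strand), chr7:142387908-142387937 (minus), chr8:3500436-3500465 (plus), chr9:114401018-114401047 (plus) and chr11:119267811-119267840 (plus), in that order.
Atp6v0d1: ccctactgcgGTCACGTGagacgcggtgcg
Ctsd: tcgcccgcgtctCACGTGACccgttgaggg
Mcoln1: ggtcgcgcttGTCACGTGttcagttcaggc
Glb1: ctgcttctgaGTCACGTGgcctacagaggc
Gaa: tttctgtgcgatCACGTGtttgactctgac

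Of the 10 genes with an E-box in the window, 3 rose (Lamp1, Ctsd and Atp6v0d1), 1 fell (Gaa) and 6 did not pass, with a median log2 fold change of 0.03. Of the 20 without it, 4 rose, 7 fell and 9 did not pass, with a median of -0.14. Of the 7 with GTCACGTG, 3 rose, 0 fell and 4 did not pass. These are counts in small groups and were not tested against each other. Among all names tested, 16.0% were called upward and 13.8% downward, and the shares called among all tested genes with either motif were not computed. Of called genes with an E-box, only Atp6v0d1 kept its call with any 1 array left out. Of those without it, Hexa, Laptm4a and Man2b1 did. The windows of Tfeb (3 starts) and Tfe3 (2 starts) held no CACGTG, and neither did that of Hexa.

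Among membrane proteins, 3 of 7 rose and 0 fell. With the 75th percentile over all probes Lamp1 was at 0.25 (adjusted p = 0.119) and Lamp2 at 0.30 (adjusted p = 0.0656), and with no normalization between arrays they stood at -0.10 and -0.05. Lamp1, a main glycoprotein of the lysosomal membrane, read 16.04, 16.06 and 16.03 on shExosc8 and 15.72, 15.65 and 15.58 on the controls. Lamp2, its relative with roles in autophagosome fusion, read 11.99, 12.08 and 11.90 against 11.52, 11.53 and 11.59. For both genes the shExosc8 arrays lay close together and above every control. Lamp1 rose by 0.39 ± 0.09 (log2, SE; adjusted p = 0.0262) and Lamp2 by 0.45 ± 0.10 (adjusted p = 0.0206), and the second Lamp2 probe was also called upward.

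Laptm4a, a small transmembrane protein of late endosomes and lysosomes, read 13.07, 13.01 and 12.64 on shExosc8 and 11.81, 11.96 and 11.64 on the controls. It was 2.15-fold higher (log2 1.10 ± 0.16, SE, adjusted p = 0.00526) and was the largest rise of the class. Its haematopoietic relative Laptm5 had 11.27, 11.14 and 10.71 on shExosc8 below 11.28, 11.39 and 11.88 on the controls. The gap between the groups was narrow, and at -0.48 ± 0.22 (adjusted p = 0.138) it did not pass, and its second probe overlapped between groups at -0.25. The calcium channel Mcoln1, the integral membrane protein Scarb2 and the cholesterol transporter Npc1 overlapped between groups, at 0.07, -0.07 and 0.11. The 95% interval for Mcoln1 was -0.28 to 0.43.

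**Figure D2:**
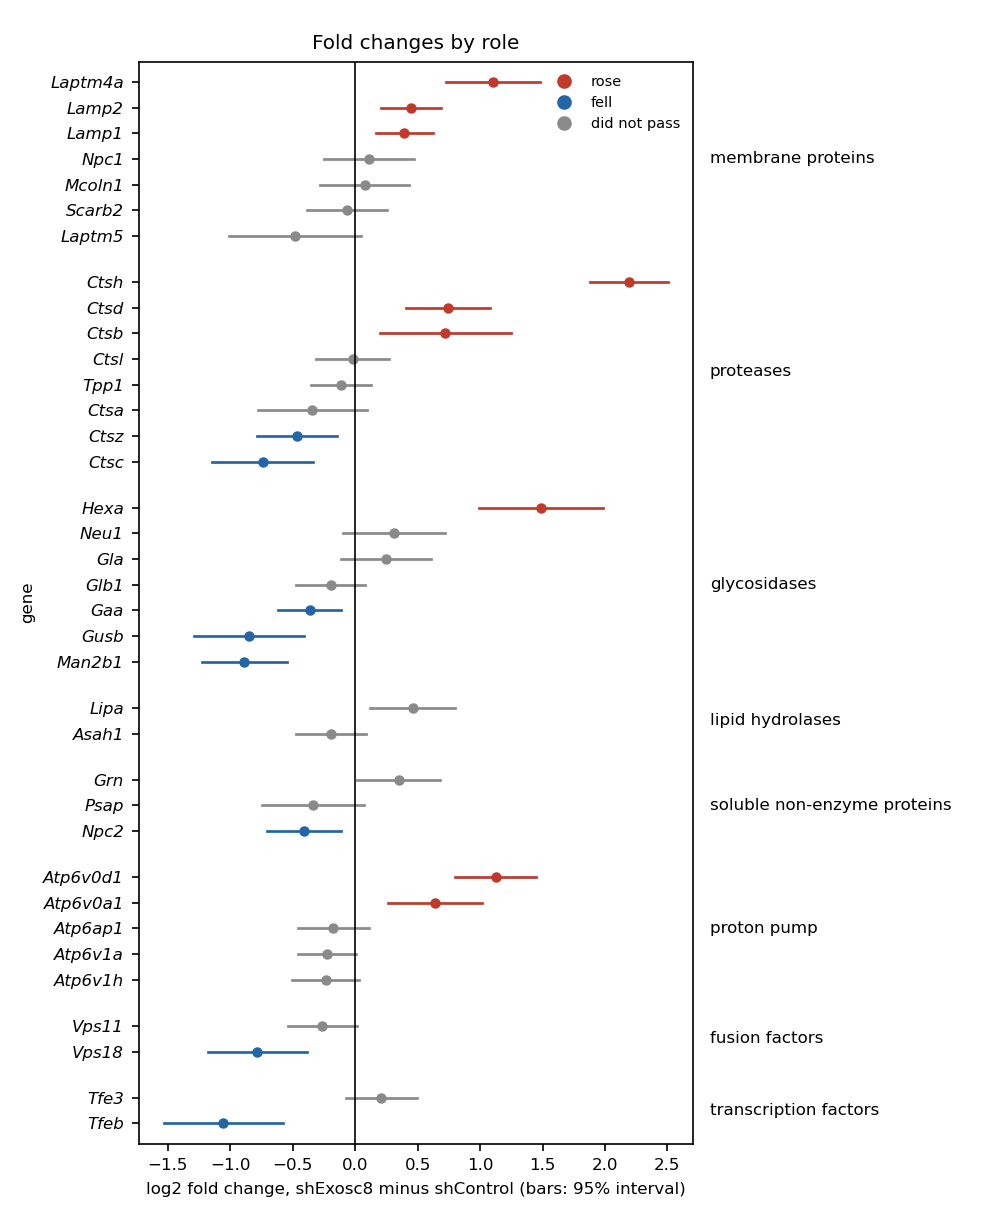
Log2 fold change of each gene (points, shExosc8 minus shControl) with its 95% interval from the limma fit (bars), grouped by role and coloured by call. Ctsh at 2.19 is the furthest to the right and Tfeb at -1.06 the furthest to the left, and the proteases and glycosidases hold genes on both sides of 0.

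Of 8 proteases, 3 rose and 2 fell. Cathepsin H (Ctsh), a cysteine protease with aminopeptidase activity, read 8.57, 8.51 and 8.43 on shExosc8 and 6.12, 6.50 and 6.32 on the controls. The groups were about 2 log2 units apart, many times the spread within either. The control signals were dim: the lowest signals well above background on shControl replicates 1, 2 and 3 were 3.75, 4.65 and 5.19. Ctsh was 4.57-fold higher (log2 2.19 ± 0.13, SE), with an adjusted p of 0.000362, the smallest among the 36 genes. With normexp background correction it was 2.85-fold higher under the same scaling and 2.42-fold under quantile normalization, and passed in both. The Ctsh probe maps to chromosome 9, from 89970828 to 89970887 on mm9. In the authors' deposited table, Ctsh also passed, with a log2 fold change of 1.58 and an adjusted p of 0.0278.

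The aspartic protease Ctsd read 15.27, 15.37 and 15.01 on shExosc8 and 14.44, 14.64 and 14.36 on the controls. Ctsb, an abundant cysteine protease, read 15.74, 15.71 and 15.23 against 14.92, 15.10 and 14.49. In both, the lowest shExosc8 array was replicate 3 and still stood above every control. Ctsd rose by 0.74 ± 0.14 (SE, adjusted p = 0.0128), with its second probe also called upward, and Ctsb by 0.72 ± 0.22 (adjusted p = 0.0486).

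Ctsc (dipeptidyl peptidase I), which activates granule serine proteases, fell. It read 10.75, 10.64 and 11.08 on shExosc8 and 11.42, 11.46 and 11.80 on the controls. The carboxypeptidase Ctsz read 13.14, 13.02 and 13.40 against 13.62, 13.57 and 13.76. In both genes replicate 3 was the highest of the shExosc8 arrays, the nearest to the controls. Ctsc fell by 0.74 ± 0.17 (SE, adjusted p = 0.0224) and Ctsz fell by 0.47 ± 0.13 (adjusted p = 0.0422). With normexp background correction Ctsz did not pass (adjusted p = 0.0608 under the same scaling and 0.0574 under quantile normalization). Ctsa, a carboxypeptidase that also protects Glb1 and Neu1, was at -0.34 with no overlap between groups but an adjusted p of 0.185. The cysteine protease Ctsl (-0.02) and the tripeptidyl peptidase Tpp1 (-0.11) overlapped between groups.

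Of 7 glycosidases, 1 rose and 3 fell. Hexa, the alpha subunit of beta-hexosaminidase, which breaks down gangliosides, read 11.21, 11.09 and 11.47 on shExosc8 and 9.49, 9.66 and 10.16 on the controls. Every shExosc8 array was above every control, of which replicate 3 was the highest. It was 2.80-fold higher (log2 1.49 ± 0.20, SE, adjusted p = 0.00487), and in the authors' deposited table its adjusted p was 0.0200. The alpha-mannosidase Man2b1 read 12.17, 12.03 and 12.42 against 12.96, 13.10 and 13.22, again with no overlap. It fell to 54.0% of the control level (log2 -0.89 ± 0.14, SE, adjusted p = 0.00744).

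Beta-glucuronidase (Gusb) read 12.34, 12.11 and 12.72 on shExosc8 and 13.13, 13.17 and 13.43 on the controls. It fell to 55.5% of the control level (adjusted p = 0.019), and its second probe was also called downward. The glycogen-degrading alpha-glucosidase Gaa read 12.78, 12.80 and 12.96 against 13.13, 13.22 and 13.27. Its groups were separate but closer together, at -0.36 ± 0.10 (SE, adjusted p = 0.0439). The sialidase Neu1 (0.31), alpha-galactosidase A (Gla, 0.25) and beta-galactosidase (Glb1, -0.20) did not pass.

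Of the 2 lipid hydrolases 0 rose and 0 fell, and of the 3 soluble proteins 0 rose and 1 fell. Acid lipase (Lipa), which releases cholesterol from its esters, read 9.17, 9.15 and 9.26 on shExosc8 and 8.54, 8.66 and 8.99 on the controls. Its groups did not overlap, and at 0.46 ± 0.14 (SE, adjusted p = 0.0525) it lay just outside the threshold. It passed without shControl replicate 3 (0.59, adjusted p = 0.0393). Acid ceramidase (Asah1) read 10.02, 10.04 and 10.26 against 10.19, 10.39 and 10.32, with overlapping groups and a log2 fold change of -0.19. Npc2, a cholesterol-binding partner of Npc1, read 12.71, 12.71 and 12.96 against 13.13, 13.33 and 13.16. All its shExosc8 arrays were below the controls, and it fell by 0.41 ± 0.12 (SE, adjusted p = 0.0472). Progranulin (Grn), a growth factor precursor cleaved in lysosomes, read 11.35, 11.19 and 11.12 against 10.85, 11.08 and 10.69, at 0.35 with an adjusted p of 0.0979. The saposin precursor Psap, whose products help lipid hydrolases, was at -0.34 with overlapping groups.

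Within the proton pump, 2 of 5 rose and 0 fell. Both that rose belong to the membrane-embedded V0 sector, of which the other subunits tested, named after their values were seen, did not pass: Atp6v0b was at 0.07, Atp6v0c at 0.07, Atp6v0e at -0.17, Atp6v0a2 at 0.30 and Tcirg1 at -0.31. The V0 subunit Atp6v0d1 read 13.57, 13.34 and 13.29 on shExosc8 and 12.27, 12.44 and 12.11 on the controls. The V0 subunit Atp6v0a1 read 13.83, 13.80 and 13.67 against 13.20, 13.35 and 12.83. In both, shControl replicate 3 was the lowest array and the groups were apart. Atp6v0d1 was 2.18-fold higher (log2 1.12 ± 0.14, SE, adjusted p = 0.00318) and also passed in the authors' deposited table (adjusted p = 0.0274). Atp6v0a1 rose by 0.64 ± 0.16 (adjusted p = 0.0271), while its second, dimmer probe gave 0.24 with an adjusted p of 0.70.

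The V1 sector hydrolyses ATP. Its catalytic subunit Atp6v1a read 12.83, 12.77 and 12.69 on shExosc8 and 12.99, 13.04 and 12.94 on the controls. Its groups lay apart by a small step, and at -0.23 ± 0.10 (SE, adjusted p = 0.12) it did not pass. Its regulatory subunit Atp6v1h was at -0.24 (adjusted p = 0.144) with separate groups, and the accessory protein Atp6ap1 at -0.18 with overlapping ones. Of the other V1 subunits, Atp6v1g1 fell, as given below, and Atp6v1d, named after its value was seen, was at 0.50 (adjusted p = 0.14). The remaining V1 subunits tested did not pass. Whether V0 and V1 subunits differ was not tested.

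The fusion factors Vps11 and Vps18 are shared by the CORVET and HOPS complexes, which tether endosomes and lysosomes before fusion. Vps18 read 11.04, 10.90 and 11.38 on shExosc8 and 11.73, 11.88 and 12.07 on the controls. It stood at 58.1% of the control level (log2 -0.78 ± 0.16, SE, adjusted p = 0.0175), and its second probe was also called downward. Vps11 read 11.86, 11.80 and 11.89 against 12.12, 12.26 and 11.96. Its groups were separate by a narrow gap, and the log2 fold change of -0.27 ± 0.11 (adjusted p = 0.121) did not pass.

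**Figure D3:**
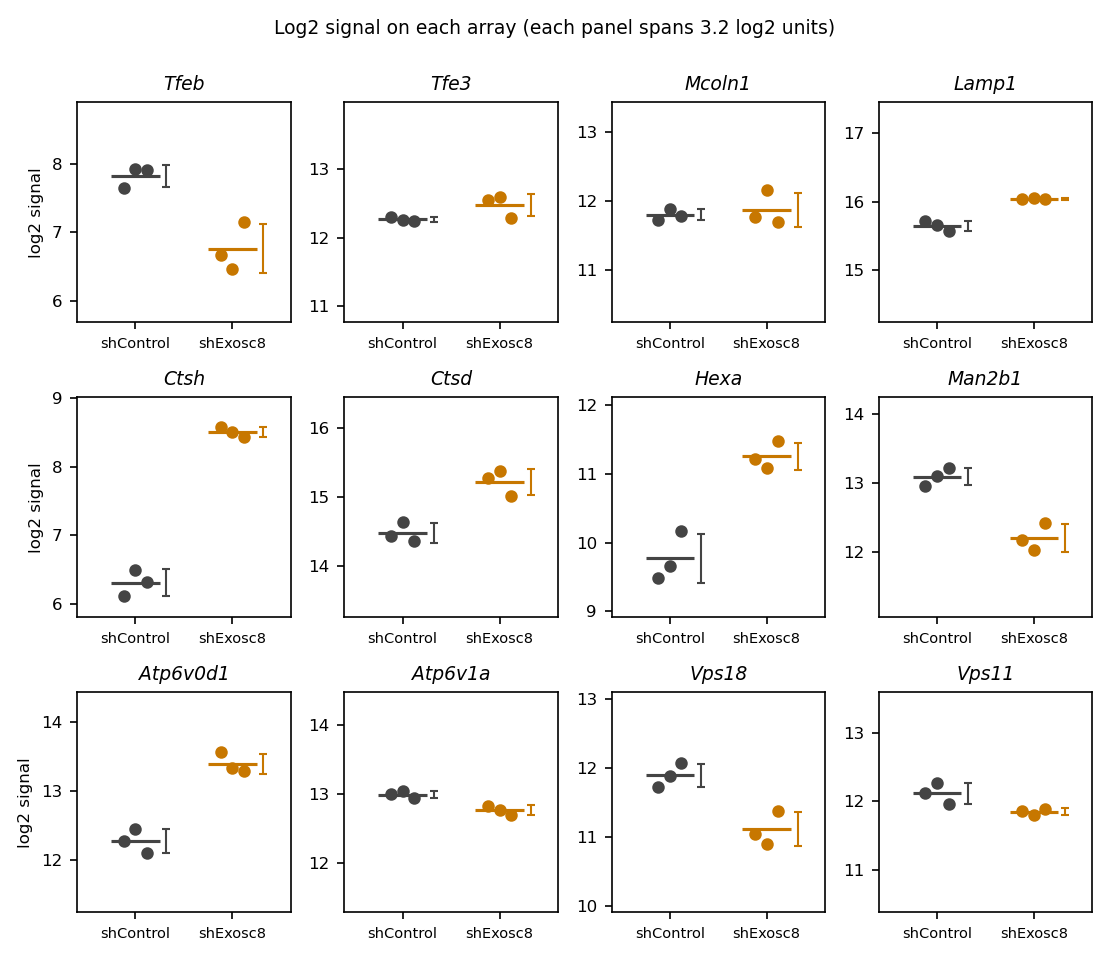
Log2 signal of 12 genes on each array (points), with the group mean (horizontal line) and SD (bar beside it) for the 3 shControl and 3 shExosc8 arrays; each panel spans the same number of log2 units, placed around its own mean. Tfeb, Man2b1 and Vps18 are lower and Ctsh, Ctsd, Hexa, Atp6v0d1 and Lamp1 higher on every shExosc8 array, while Tfe3 and Mcoln1 overlap.

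The rest of the pathway was mixed as well. Of 124 other lysosome genes tested, 13 rose and 20 fell, with a median log2 fold change of -0.14. Among all names, 29.8% were called, 16.0% upward and 13.8% downward. The 33 calls among the 124 genes were thus a share no higher than that background. The higher share called among the genes fixed by name was not seen in these other genes. The counts in the single lists below were not tested against the background. Among 33 other hydrolases and activators 3 rose and 9 fell. Legumain (Lgmn), an asparaginyl protease, read 15.33, 15.67 and 14.58 on shExosc8 and 12.13, 12.89 and 11.24 on the controls. Both groups were widely spread and still far apart, at 8.59-fold (95% interval 393% to 1877% of the control level, adjusted p = 0.00638). Cathepsin S (Ctss), a protease of antigen-presenting cells, was 5.74-fold higher (adjusted p = 0.00126; 2.99-fold and 2.53-fold in the normexp settings), and the mannosidase Man2b2 fell to 61.7% of the control level (adjusted p = 0.00991). Among 26 other membrane proteins 7 rose and 0 fell, among them the tetraspanin Cd63 at 4.11-fold (adjusted p = 0.0019) and Sidt2 at 1.89-fold (adjusted p = 0.00294). Lgmn, Ctss, Man2b2, Cd63 and Sidt2 kept their call with any 1 array left out.

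Of 13 other pump subunits 0 rose and 1 fell, Atp6v1g1 at -0.34 (adjusted p = 0.0477), while Atp6v1g2 (0.44) and the accessory protein Atp6ap2 (0.31) did not pass. Of 19 other tethering and fusion factors 1 rose and 4 fell. The HOPS subunit Vps39 read 8.95, 8.87 and 8.67 on shExosc8 and 9.37, 9.48 and 9.63 on the controls, a fall of 0.66 ± 0.13 on the log2 scale (SE, adjusted p = 0.013). The CORVET subunit Tgfbrap1 fell by 0.79 ± 0.19 (adjusted p = 0.0249), and Rilp, an effector of the late endosomal GTPase Rab7, rose by 0.74 ± 0.16 (adjusted p = 0.021). The other falls, named after their values were seen, were those of the HOPS subunits Vps41 (-0.46) and Vps16 (-0.36), and Vps33a was at -0.14. Vps39 lost its call without shControl replicate 3, and Rilp without shExosc8 replicate 1 or 2 or shControl replicate 2 or 3. Atp6v1g1, Tgfbrap1 and Vps41 kept theirs only without shExosc8 replicate 3, and Vps16 only without shExosc8 replicate 2.

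Of 10 genes that sort hydrolases to lysosomes 1 rose and 3 fell. The sorting receptor Sort1 was 2.54-fold higher (log2 1.35 ± 0.12, SE, adjusted p = 0.00137), and 1.54-fold with the mean of its probes. The mannose 6-phosphate receptor Igf2r fell by 0.47 ± 0.11 (adjusted p = 0.0228) and the adaptor Gga2 fell by 0.74 ± 0.18 (adjusted p = 0.0294). The third fall, named after its value was seen, was that of Gnptab (-0.44, adjusted p = 0.0425), a subunit of the enzyme that starts the mannose 6-phosphate tag. Of 23 relatives and regulators of TFEB 1 rose and 3 fell. Mtor, the kinase that holds TFEB in the cytoplasm, read 8.96, 8.88 and 9.01 against 9.46, 9.51 and 9.49, a fall of 0.54 ± 0.09 (SE, adjusted p = 0.00994). Its partner Rptor, named after its value was seen, fell by 0.52 ± 0.15 (adjusted p = 0.0434), and the lysosomal scaffold Lamtor2 fell by 0.42 ± 0.12 (adjusted p = 0.0405). The catalytic subunit of the phosphatase calcineurin, Ppp3ca, rose by 0.78 ± 0.19 (adjusted p = 0.0289). Sort1 and Mtor kept their call with any 1 array left out, and Igf2r lost it without shExosc8 replicate 1 or shControl replicate 1 or 2. Gga2, Gnptab, Rptor, Lamtor2 and Ppp3ca kept theirs only without shExosc8 replicate 3.

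**Figure D4:**
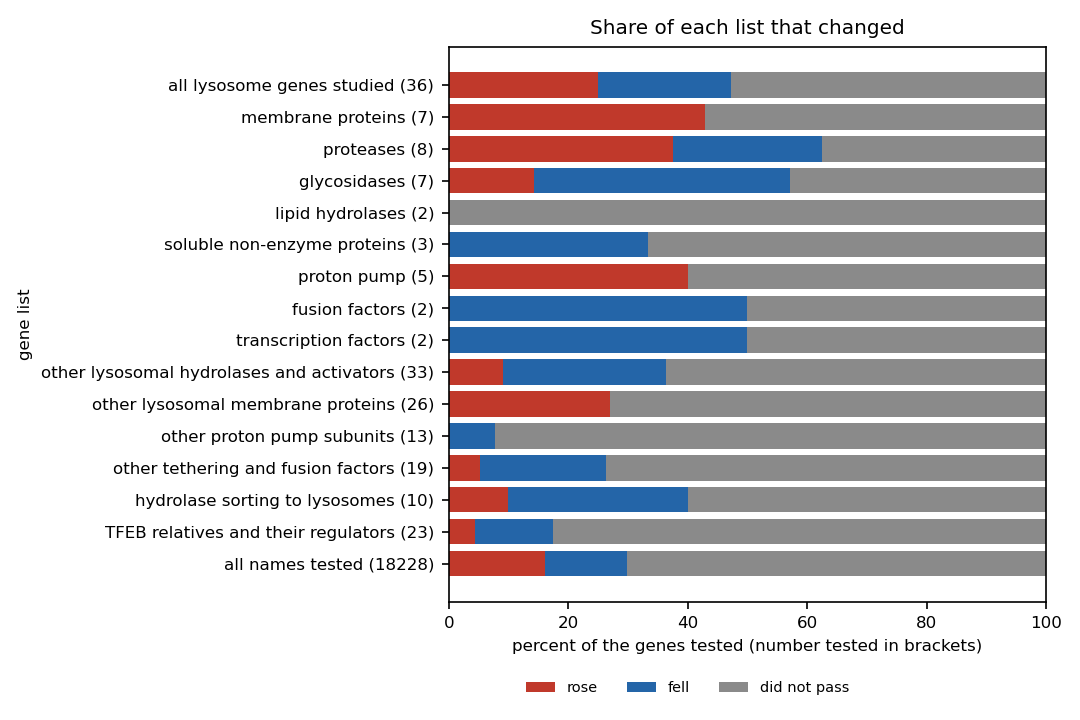
Percent of the tested genes in each list that rose, fell or did not pass, with the number tested in brackets. Rises without falls are seen in the membrane protein and proton pump lists of the 36 genes and in the other membrane proteins. The other proton pump subunits show 1 fall and no rise. Falls outnumber rises among the glycosidases, other hydrolases, other tethering factors, sorting genes and TFEB relatives. The soluble proteins, fusion factors and transcription factors show 1 fall each and no rise, in lists of 3, 2 and 2 genes.

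Most tested markers of other cell types, blood cells rich in lysosomes or lysosome-related granules among them, were higher in shExosc8 as well. The summed signal of the 14 erythroid markers was also higher, at 2186250 to 2567290 on the control arrays and 2700180 to 4288580 on the shExosc8 arrays. The brightest markers weigh most in such a sum, and by gene 4 rose, 1 fell and 9 did not pass. Of 22 macrophage markers on the array 11 could be tested, of which 9 rose and 0 fell. Of the 11, 9 were above background on all 3 control arrays and 1 on none. Markers not above background on every control passed the filter through the shExosc8 arrays alone. The count of rises and the sum thus partly follow from the filter. The summed signal of the 11 was 5393 to 6528 on the control arrays and 24411 to 28289 on the shExosc8 arrays. Vcam1 and Timd4 were above background on no array. C1qa, Cd163, Clec4f, Spic and Aif1 were so only on 1 control array each, and Siglec1 only on 2 control arrays. C1qc and Mrc1 were so only on shExosc8 arrays (2 and 1), and Cd14 on 1 array of each group. Csf1r, Lyz2, Tyrobp and Mpeg1 were measured on all 6. Of 15 tested neutrophil and monocyte markers 14 rose (summed signal 74556 to 90132 on controls and 262423 to 335920 on shExosc8), and of 16 megakaryocyte markers 16 rose (44318 to 64149 and 379284 to 545946). Of 6 tested mast cell and basophil markers 4 rose (4761 to 6875 and 14296 to 23219), with 0 falling. Of 7 tested hepatocyte markers, 6 of them above background on all control arrays, 4 rose (2324 to 2656 and 3744 to 4447), with 0 falling. Each of these lists had 10 markers on the array. Of the untested ones, Fcer1a and Ms4a2 were above background on no array. Gzmb, Apoa1 and Ttr were so only on control arrays (2, 2 and 1). Mcpt8 was above background on 1 shExosc8 and 2 control arrays, and Alb on 2 and 0. Among all names, 16.0% were called upward. The part of these cell types in the rises of Ctsh, Ctss, Lgmn, Cd63 and Hexa was not tested. In bulk RNA, more cells of a type and more RNA per cell cannot be told apart. Cd68, named after its value was seen, a lysosomal membrane protein abundant in macrophages, rose by 0.50 ± 0.13 (SE, adjusted p = 0.0369), and kept its call only without shExosc8 replicate 3. With no normalization between arrays its adjusted p was 0.998.

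**Figure D5:**
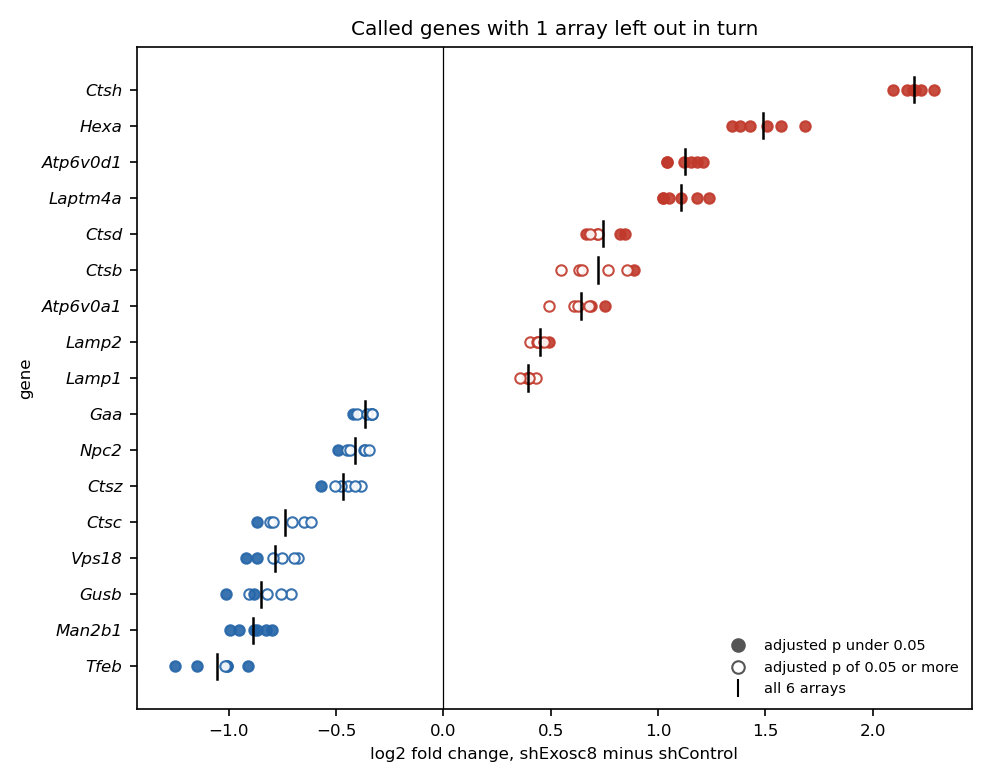
Log2 fold change of the 17 called genes with each of the 6 arrays left out in turn (points, filled where the adjusted p stayed under 0.05) and with all 6 arrays (black tick). All points of a gene lie on 1 side of 0, and Ctsh, Hexa, Atp6v0d1, Laptm4a and Man2b1 have filled points throughout.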

How the data were processed

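The 6 single-colour arrays carried Cy3-labelled RNA from 1 slide and 1 scan. Their deposited intensity per spot came from Feature Extraction 10.7.3.1 by Agilent with spatial detrending switched on, as the file headers state. The series table adds the authors' log2 fold changes and p-values, deposited without their settings; limma is named in the submitters' processing notes. Probe coordinates are on mm9, per the file headers.

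Control spots (3671 of 62976) and spots flagged as outliers were left out, and spots of 1 probe were averaged as log2 signal. Each array was scaled by its 75th percentile over the 21615 probes well above background on all 6 arrays. Probes well above background on every array of at least 1 group were kept, names came from RefSeq by accession (27495 probes) or symbol (3549) and otherwise from the file (24616), and the probe with the highest mean stood for each name. Differences were tested by limma 3.58.1 under R 4.3.3 (a linear model with moderated variances, 2-sided p), adjusted by Benjamini-Hochberg over 18228 names, and the script was tested on simulated data. Second probes were tested in a separate limma fit over the 24836 probes that passed the filter, adjusted over those probes. In that fit the main probes of Ctsb (adjusted p = 0.0512) and Npc2 (adjusted p = 0.0518) did not pass. Precision is limited by the number of arrays.

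The 36 genes and the other lists were chosen with earlier results of these data known. Named were all 36 genes, with array values for called genes and at least 2 genes per role, and the 3 genes with the smallest p of each other list. A gene that this rule would name is not reported here. Alternatives covered scaling, background, filter, flags, probe choice, blocks, single arrays and the authors' deposited table.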

Additional observations from a re-analysis of the deposited data

How the results depend on the processing

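Precision rests on 3 arrays a group. With any 1 array left out, 5 to 18 of the 36 genes changed (main 17), 4 to 10 upward and 1 to 8 downward, with 2357 to 8431 of all names (main 5439) and 10 to 44 of the other lysosome genes (main 33). Tfeb ranged from -1.25 to -0.91 and Tfe3 from 0.15 to 0.30, and Tfe3 passed only without shExosc8 replicate 3. Without both shExosc8 replicate 3 and shControl replicate 2, which was added after the data had been seen, the count was 16.

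With no normalization between arrays, 2 of the 36 rose and 17 fell, with 9167 of all names and 65 other lysosome genes changed, and Lamp1 (-0.10) and Lamp2 (-0.050) turned sign without passing. Relative to the median of all names in that setting they were at 0.46 and 0.51. With no filter on dim probes 5 changed (4 upward, 1 downward), with 1815 of all names and 6 other lysosome genes, and Tfeb at -1.06 did not pass. A block for slide column left the fit with 1 residual degree of freedom, and 2 changed (2 upward, 0 downward), with 537 of all names and 2 other lysosome genes, and Tfeb at -0.97 did not pass. By the authors' deposited table, 3 passed (3 upward, 0 downward), with 1321 of all names and 6 other lysosome genes, and Tfeb at -0.94 did not pass. With normexp and the 75th percentile Tfeb was at -0.50 and did not pass. The cause of these differences was not tested.

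With the replicate number as a block 15 of the 36 changed (9 upward, 6 downward), with 5633 of all names, and Gaa and Npc2 lost their calls. The numbers were not taken as pairs. The deviations of same-numbered arrays correlated at 0.0358, 0.219 and 0.303. For shExosc8 replicates 2 and 3 the same-numbered control was the best match, while shExosc8 replicate 1 correlated best with shControl replicate 2 (0.166). These values do not settle whether same-numbered arrays are pairs. Over the 36 genes and all alternatives, 110 results lost the call, 16 gained it, 2 reversed (Lamp1 and Lamp2) and 556 stayed on their side of the threshold. Of those 556, 538 kept their direction and 18, of 9 genes that were not called, changed sign.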
